A study of Mus musculus with 5 samples.

Results

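The genes that encode the proteins of the cytosolic ribosome were followed in mouse embryonic fibroblasts made immortal with the large T antigen of SV40, a viral protein that inactivates p53 and the retinoblastoma protein. They were chosen by symbol: the numbered Rpl and Rps genes with their lettered paralogs, plus Rplp0, Rplp1, Rplp2 and Rpsa. Symbols marked -ps for pseudogenes, the S6 kinases and Rps27l were left out. Rps4y2, which RefSeq lists as a transcribed pseudogene, passed this rule. The rule gave 83 of the 23337 genes listed, 51 of the large and 32 of the small subunit. The KO group was 2 libraries of SIRT3 -/- fibroblasts and the WT group 3 libraries of wild-type fibroblasts, all of strain 129Sv, with SV40 large T antigen and grown in normal conditions. SIRT3 is a deacetylase of mitochondria, and the study set the transcriptomes of both genotypes side by side. Nothing in the labels says how many lines or cultures gave these libraries, so a p-value here measures the spread between libraries, which may be technical. If each genotype was 1 line, genotype and line cannot be told apart.

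Ribosomal proteins are needed in nearly equal amounts, and dividing cells make their messenger RNAs in large numbers from genes spread over nearly all chromosomes. These messenger RNAs begin with a run of pyrimidines, the terminal oligopyrimidine motif, through which the kinase mTOR and the protein LARP1 control their translation and storage together. Many of the genes also carry small nucleolar RNAs (snoRNAs), guides of ribosomal RNA modification, in their introns. Most have numerous pseudogenes made by reverse transcription.

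The libraries held 33473103 and 33579031 reads in KO replicates 1 and 2, against 41758681, 37396488 and 39909127 reads in WT replicates 1, 2 and 3, as recovered from the deposited values. Values are read counts scaled by a size factor for each library (normalized read counts) and RPKM, which also divides by gene length. The targeted gene Sirt3 did not fall: it had 200.4 and 216.8 normalized read counts in KO libraries, against 169.7, 149.4 and 118.4 in WT libraries (limma, log2 fold change 0.53, adjusted p = 0.0044). With the shift of its chromosomal neighbours, described below, subtracted, this was 0.22 and not called (adjusted p = 0.230). For an allele without a transcript this would go against the label, and counts per gene cannot show a missing exon, so KO and WT below mean the libraries as labelled. Of 10 fibroblast markers 9 were detected, with Lum near 0, and their summed RPKM was 4912 to 5025 in KO libraries against 5706 to 5902 in WT libraries. Single markers differed far more than the sum: Pdgfra was at 5.02 RPKM in KO against 80.4 RPKM in WT and Col3a1 at 39.6 against 188.9, while Col1a1 was at 611.9 against 471.7 and Col1a2 at 738.1 against 495.2. Markers of other cell types summed to far less: 3.15 to 3.64 RPKM in KO against 0.778 to 0.900 in WT for muscle (Myod1 at 0), 1.51 to 1.75 against 1.84 to 2.06 for macrophages and blood (Hbb-b1 at 0), 0.437 to 0.478 against 0.167 to 0.196 for epithelium (Krt5 at 0), 0.368 to 0.374 against 0.159 to 0.222 for endothelium, and 0.531 to 0.703 against 1.10 to 1.58 for germ cells (Tnp1 at 0). The part of these markers in the results below was not tested.

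Since the start of the messenger RNA carries the pyrimidine motif, the stretches below show the annotated start of the most changed members that the promoter table held. Each stretch runs from 40 bases before the annotated start to 20 bases from it (RefSeq promoters of GRCm38.p6, the assembly of mm10, 5′ to 3′). Capitals mark runs of 8 or more C or T within 20 bases of the start. A marked run can lie wholly before the annotated start, as in Rpl13, so it is not by itself the terminal motif. Rpl13, Rpl22l1, Rpl27a, Rplp2 and Rps15a were among the members highest in KO relative to WT libraries, and Rps15, Rpl19 and Rpl28 were lower in KO.
Rpl13 (chr8:123102310-123102369, plus strand): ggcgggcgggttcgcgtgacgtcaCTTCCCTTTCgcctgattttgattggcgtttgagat
Rpl22l1 (chr3:28805468-28805527, plus strand): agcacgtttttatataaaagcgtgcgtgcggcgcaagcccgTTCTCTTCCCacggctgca
Rpl27a (chr7:109519155-109519214, plus strand): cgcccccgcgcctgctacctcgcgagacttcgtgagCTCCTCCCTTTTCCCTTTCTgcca
Rplp2 (chr7:141447611-141447670, plus strand): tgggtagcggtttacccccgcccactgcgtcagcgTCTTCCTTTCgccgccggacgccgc
Rps15a (chr7:118116128-118116187, minus strand): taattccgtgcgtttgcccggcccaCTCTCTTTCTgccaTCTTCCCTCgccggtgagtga
Rps15 (chr10:80292391-80292450, plus strand): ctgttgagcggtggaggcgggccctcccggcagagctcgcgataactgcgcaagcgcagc
Rpl19 (chr11:98026670-98026729, plus strand): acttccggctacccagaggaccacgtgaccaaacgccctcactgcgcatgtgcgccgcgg
Rpl28 (chr7:4792925-4792984, plus strand): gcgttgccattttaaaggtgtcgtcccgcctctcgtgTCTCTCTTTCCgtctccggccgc
With shorter runs left unmarked, a run of 8 or more stood near the start in the 5 genes that rose and in Rpl28. No run of 8 or more stood in these windows of Rps15 and Rpl19. Promoters were listed for 62 members, 73 in all, and 41.1% of them held such a run on the coding strand, against 15.9% of the promoters of all genes tested and 16.0% of all 32851 promoters. By outcome, the run was in 46.0% of 50 promoters of members called higher and in 38.9% of 18 promoters of the other members tested, a difference that was not tested. Over the whole window of 250 bases before to 50 after the start, CCGGAA, searched on both strands as the core of the binding motif of GABPA and other ETS factors, was in 47.9% of the members' promoters and in 26.6% of those of tested genes. The motif AAGATGG of the factor YY1, on both strands, was in 16.4% against 6.90%, and TATAAA, on the coding strand, in 8.22% against 4.42%. By outcome, CCGGAA was in 42.0% of the promoters of members called higher and in 66.7% of those of the others, AAGATGG in 18% against 16.7%, TATAAA in 12% against none and the GC box GGGCGG in 62.0% against 66.7%, also not tested. Over all members GGGCGG was about as frequent in members (60.3%) as in all genes tested (62.8%). These are matches of letters and not sites of binding.

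Most members were listed as abundant transcripts, and a small tail had few or no reads. The median of their mean levels was 199.96 RPKM. Among the highest was Rps2, which lines the entry of the mRNA channel, at 1228 and 1258 RPKM in KO against 813.2, 748.7 and 821.6 RPKM in WT. The stalk protein gene Rplp1 followed with 1123 and 989.3 RPKM in KO against 893.0, 778.6 and 862.5 RPKM in WT. The counted gene lengths were short, with a median of 725 bases against 2882 bases for the other genes tested. Rps15a was counted over 5134 bases, the longest of all members, which lowers its RPKM: it reached 14.4 ± 1.26 RPKM in KO and 8.79 ± 0.52 RPKM in WT (SD, n = 2 and 3) from 2750 and 1667 normalized read counts.

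**Figure D1:**
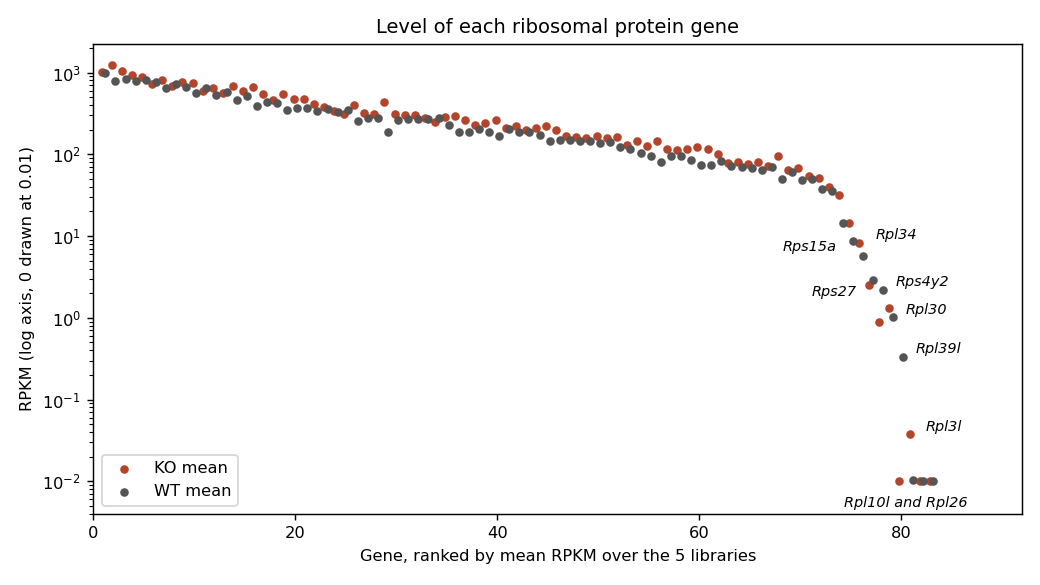
Mean RPKM (log axis) of each of the 83 ribosomal protein genes in KO libraries (red, n = 2) and WT libraries (grey, n = 3), ranked by the mean over the 5 libraries. The highest genes reach about 1000 RPKM, and the named genes at the right lie below 15 RPKM in both groups.

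Of the genes at the low end some are paralogs known from other tissues, but others encode proteins that every ribosome has. Rpl26, at the exit of the peptide tunnel, was listed at 0 in all 5 libraries, and so was Rpl10l, a testis copy of Rpl10. A count of 0 allows up to 3 reads per library, or 2.65 to 3.34 normalized read counts. Rpl30 had 22.0 and 38.9 normalized read counts in KO libraries, against 20.3, 19.8 and 30.5 in WT libraries. Rps27 had 65.0 and 42.3 in KO against 72.5, 50.5 and 62.9 in WT. Both overlapped between groups and did not pass the test (limma, adjusted p = 0.401 and 0.432). Rpl34 was a little higher, with 193.8 and 172.4 in KO against 127.3, 143.4 and 110.1 in WT (log2 fold change 0.53, adjusted p = 0.0042). The coding sequences of Rpl26, Rpl30, Rps27 and Rpl34 have 6, 12, 4 and 5 near-identical copies elsewhere in the annotated transcripts (at least 95% identity over at least 80% of the coding sequence). Of 82 members with a coding sequence, 75 had at least 1 such copy, with a median of 5 and a maximum of 57 for Rpl21, and 551 of the 576 copies were annotated as pseudogenes. How the counting treated reads that fit several places is not given in the sources used here, so the levels of these genes are uncertain, and whether reads were lost to copies was not tested.

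Most ribosomal protein genes were higher in KO than in WT libraries, by small amounts. Among all 13062 genes tested, 32.6% were called higher and 32.6% lower in KO, 65.3% in either direction, at an adjusted p under 0.05 (limma). Of the 79 ribosomal protein genes tested, 60 (75.9%) were called higher, 4 (5.06%) lower and 15 were not called. The median log2 fold change of the 79 was 0.27, with quartiles of 0.14 and 0.45, against -0.0023 for all genes tested. Every KO library lay above every WT library for 60 members and below for 4, where 37.8% of all genes tested lay above and 37.6% below. These 60 are not quite the 60 called ones, since Rps29 and Rpl23 were called although a WT library reached into the KO values, and Rps25 and Rps16 lay apart without a call. The differences were small: 19 members were called higher at under 1.2-fold, 14 reached 1.5-fold, and Rpl13 and Rpl22l1 alone reached 2-fold. Of all 13062 genes tested, 1609 were called higher and 1573 lower at 1.5-fold or more. In bulk RNA, more transcript per cell and another mix of cells cannot be told apart.

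The rise was seen in both subunits, with 40 of 47 tested members of the large subunit called higher and 2 lower (median 0.29), and 20 of 32 of the small subunit called higher and 2 lower (median 0.25). The difference between the subunits was not tested. All members together took 2.21% and 2.07% of the normalized counts in KO libraries, against 1.78%, 1.70% and 1.79% in WT libraries. The KO share was thus 1.22-fold the WT share, with no overlap. The two-sided exact permutation test, which doubles the smaller one-sided p, gave p = 0.2, its smallest possible value over 10 arrangements of labels. As a share of summed RPKM the members took 7.07% ± 0.26 in KO and 6.08% ± 0.15 in WT (SD, n = 2 and 3), a 1.16-fold ratio. Among the 207 other genes of under 1000 bases with a mean of 1000 or more, 93 were called higher and 56 lower, with a median of 0.07.

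**Figure D2:**
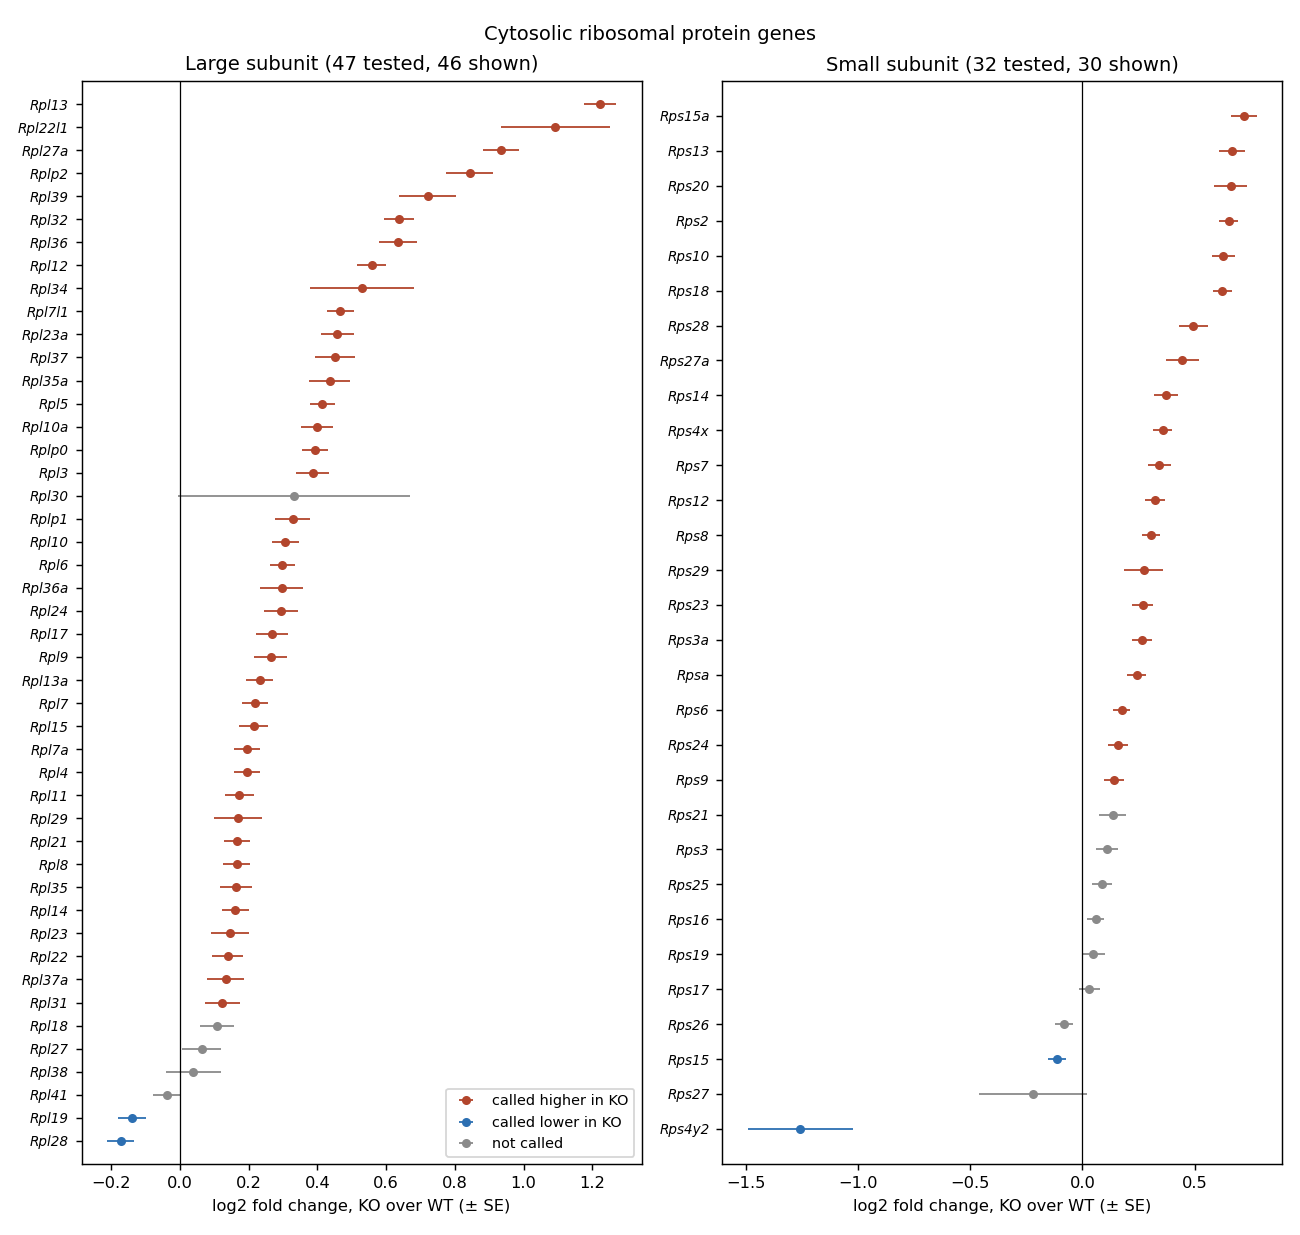
Log2 fold change, KO over WT, with its standard error for the 47 large subunit genes (left) and the 32 small subunit genes (right) tested, ordered by size, with some genes not shown. Red points were called higher in KO, blue ones lower and grey ones not called, and most points lie between 0 and 0.7.

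Rpl13, a protein of the large subunit whose introns hold Snord68, rose most. It had 13311 and 11952 normalized read counts in KO libraries, against 5361, 5169 and 5702 in WT libraries (log2 fold change 1.22, standard error 0.047, limma, adjusted p = 1.7e-15). Rpl27a, on chromosome 7 from 109519195 to 109522369, had 4237 and 3706 in KO against 2043, 2027 and 2151 in WT (0.93, standard error 0.053, adjusted p = 1.3e-12). The groups of these genes lay far apart relative to the spread within them. Rps15a, a protein of the small subunit's body, had 2903 and 2598 in KO against 1607, 1614 and 1780 in WT (0.72, standard error 0.057). Rps13 and Rps20, also of the small subunit, rose by 0.67 and 0.66 on the log2 scale and Rps2 by 0.65.

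Only 4 members were called lower in KO. Rpl28, a large subunit protein of animals that baker's yeast lacks, had 4514 and 4543 normalized read counts in KO libraries against 5217, 4996 and 5105 in WT libraries (log2 fold change -0.17, limma, adjusted p = 0.00063). Rpl19, which forms a bridge between the subunits, had 9575 and 8996 in KO against 10378, 9814 and 10499 in WT (-0.14, adjusted p = 0.0049). Rps15, whose tail reaches the decoding site, had 11840 and 11082 in KO against 12585, 12059 and 12548 in WT (-0.11, adjusted p = 0.0147). The KO values of these 3 genes lay just below the WT values. Rps15 lost its call without WT replicate 1 (adjusted p = 0.0742 in limma), WT replicate 3 (0.0633) or KO replicate 2 (0.138), and on RPKM values (0.0587). The fourth was Rps4y2, described with the paralogs.

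By role, the 3 genes of the stalk, the flexible arm that recruits elongation factors, all rose. Rplp0, its base, had 37471 and 37253 normalized read counts in KO against 28418, 27832 and 29156 in WT (log2 fold change 0.39). Rplp1 had 19378 and 17289 in KO against 15425, 13480 and 14903 in WT (0.33). Rplp2 had 2656 and 2115 in KO against 1332, 1314 and 1316 in WT (0.84, standard error 0.068), the largest of the 3, with the KO libraries far apart from each other. The 2 proteins that travel with 5S ribosomal RNA and can bind the p53 regulator Mdm2 rose too: Rpl5 had 14888 and 14852 in KO against 11043, 11052 and 11388 in WT (0.41), and Rpl11 had 6566 and 7078 in KO against 6264, 5891 and 6001 in WT (0.17).

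Around the exit of the peptide tunnel, 6 of the 7 tested proteins rose and Rpl19 fell. Rpl39, which lines the tunnel, had 2031 and 1508 normalized read counts in KO against 1090, 1041 and 1055 in WT (log2 fold change 0.72, standard error 0.082). Rpl23a, a docking place for the signal recognition particle, rose by 0.46 and Rpl17 by 0.27. Rpl35 rose by 0.16 and Rpl22 by 0.14 on the same scale. Rpl31 had 3916 and 3386 in KO against 3323, 3351 and 3353 in WT, so only KO replicate 1 stood clearly apart, and its log2 fold change of 0.12 was called (limma, adjusted p = 0.0370). That call was lost without any one of WT replicate 1 (0.108), WT replicate 2 (0.0848), WT replicate 3 (0.0563) and KO replicate 1 (0.756), and the Rpl22 call without KO replicate 1 (0.189). Of the 15 tested genes whose human counterparts are mutated in Diamond-Blackfan anaemia, 10 (66.7%) were called higher and none lower, with a median of 0.17. Among all members tested 75.9% were called higher, and among all genes tested 32.6%. The highest of the 15 was Rps10 at 0.63. Rps19, the first found and most often mutated, was at 0.05 and not called (limma, adjusted p = 0.420).

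The 2 KO libraries did not rise equally. Over the 72 members with a mean of 1000 or more, the median log2 difference from the WT mean was 0.32 in KO replicate 1 and 0.21 in KO replicate 2, against 0.014, -0.037 and 0.032 in WT replicates 1, 2 and 3. KO replicate 1 was above KO replicate 2 for 64 of the 72 (88.9%), against 44.6% of the 6443 other genes of that level. The median log2 ratio of KO replicate 1 to KO replicate 2 was 0.16 in the 26 members under 600 bases and 0.09 in the 46 longer ones. It was 0.13 in the 32 other genes under 600 bases and -0.012 in all others of that level. WT replicate 2 was the lowest of the WT libraries for 53 of the 72 (73.6%), against 33.1% of the other genes. The median coefficient of variation of the 72 was 5.86% in KO and 2.99% in WT. Rps29 rested on KO replicate 1, with 1962 and 1418 normalized read counts in KO against 1441, 1298 and 1404 in WT (limma, log2 fold change 0.27, adjusted p = 0.0090, and 0.632 without KO replicate 1). The call of Rpl23 was lost in the same way (adjusted p = 0.0256, and 0.718 without KO replicate 1). Over all 79 members tested, the median log2 difference from the WT mean was 0.28 in KO replicate 1 and 0.21 in KO replicate 2.

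**Figure D3:**
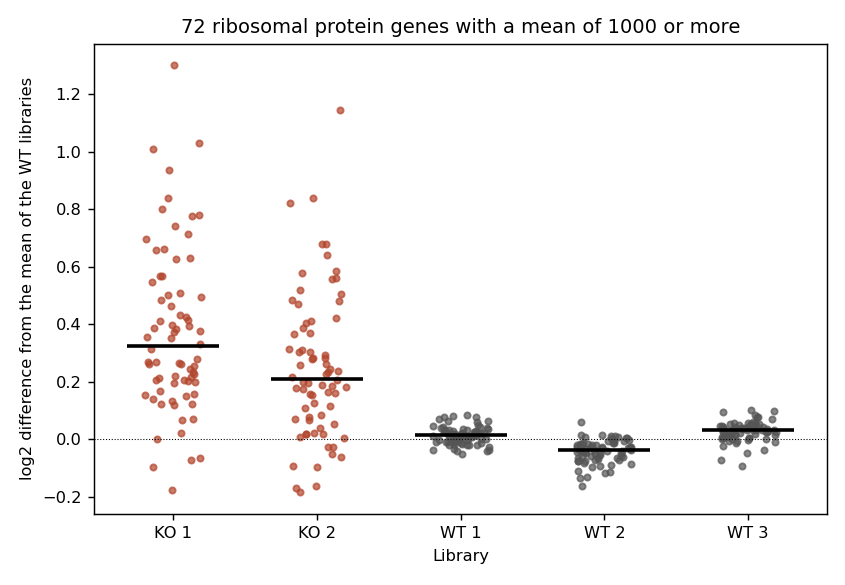
Log2 difference of the normalized read count from the mean of the WT libraries for each of the 72 ribosomal protein genes with a mean of 1000 or more (points), by library, with the median as a bar. The medians are 0.32 and 0.21 in the KO libraries and lie within 0.04 of 0 in the WT libraries.

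How far a ribosomal protein gene differed went with where it lies. For each gene the median log2 fold change of the other tested genes within 5 Mb, none of them a member, was taken as the shift of its neighbourhood. This shift ran from -0.38 to 0.99 over the members. Across the 72 members with a mean of 1000 or more, the fold change and the neighbourhood's shift had a Pearson r of 0.84 and a Spearman rho of 0.80, against 0.42 and 0.49 across 6356 other genes of that level. Across all 79 members tested r was 0.60 and rho 0.73. The limit of 1000 was chosen after the data were seen. These are correlations across genes measured in the same 5 libraries, several of which share neighbours, and are given as a description. The 17 members in neighbourhoods shifted by 0.2 or more had 16 calls higher and 1 lower, with a median of 0.63. The 33 between -0.1 and 0.2 had 30 higher and none lower, with a median of 0.30. The 29 at -0.1 or less had 14 higher, 3 lower and 12 not called, with a median of 0.11. Among all genes tested 32.6% were called higher and 32.6% lower. The shares among other genes within each band were not counted, and raised neighbourhoods hold mostly raised genes by definition. These band counts therefore do not set the members apart from their neighbours.

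The members with the largest rises mostly lay in such stretches. Rpl13 lies on chromosome 8 from 123102350 to 123105244, where the neighbours' median was 0.99. Around Rpl27a it was 0.67. Rplp2, on chromosome 7 from 141447651 to 141451359, lies close to Sirt3 (140863663 to 140882309), and the neighbours' median was 0.31 around both. All 7 members tested on chromosome 17, among them Rps2, Rps10, Rps18, Rpl36 and Rps28, were higher, with a median of 0.62 where their neighbourhoods had a median of 0.32. Of the 4 members called lower, 3 lay in stretches that were lower: the neighbours' median was -0.28 around Rps15 on chromosome 10, -0.27 around Rpl19 on chromosome 11 and -0.19 around Rpl28 on chromosome 7. Rps4y2 did not, with a neighbours' median of 0.20 and a log2 fold change of -1.46 with that shift subtracted. On chromosome 7, which holds 14 tested members, 6 were higher and 1 lower.

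With the neighbourhood's shift subtracted, the 72 members with a mean of 1000 or more drew together around one value. The spread of the 72 fell to a standard deviation of 0.14 of the log2 fold changes, against 0.26 as measured, and the interquartile range to 0.15, against 0.31. In the 6356 other genes the standard deviation was 0.47 after and 0.51 before subtraction. The median of the 72 was 0.28 after and 0.27 before, and none of the 72 stayed below 0, where 6 had been. Over all 79 members tested the standard deviation fell less, to 0.27 from 0.33. Their interquartile range was 0.16 after and 0.31 before, and 2 stayed below 0, where 8 had been. In the 3 bands of neighbourhoods the medians became 0.25, 0.28 and 0.32. Calls in this fit were 72 higher and 1 lower of 79, where 30.2% of all genes were called higher and 29.6% lower (limma). The fit took each shift as known, though some rest on few genes, such as the 14 neighbours of Rps20. Its calls and adjusted p-values, here and elsewhere, therefore leave out the error of the shift. Rpl13 came to 0.24 and Rpl27a to 0.27, and Rps15 (0.17, adjusted p = 0.00085) and Rpl19 (0.13, adjusted p = 0.0096) turned to calls of higher in KO, while Rpl28, at 0.02, was not called (adjusted p = 0.658). Rpl10a (0.08, adjusted p = 0.148), Rpl36a (0.09, 0.259) and Rps6, the substrate of the S6 kinases (0.00083, 0.987), lost their calls. A few stayed well above the rest: Rpl22l1 at 1.10, Rpl39 at 0.85 and Rpl12, part of the stalk's base, at 0.68.

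**Figure D4:**
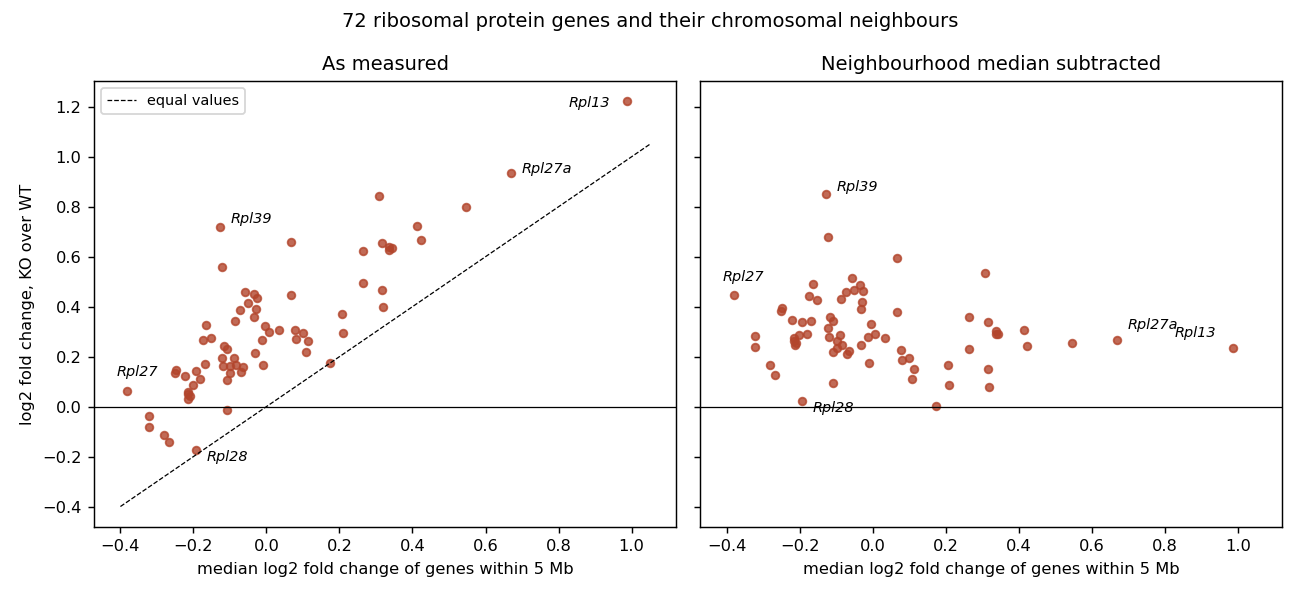
Log2 fold change, KO over WT, of the 72 ribosomal protein genes with a mean of 1000 or more against the median log2 fold change of other genes within 5 Mb, as measured (left) and with that median subtracted (right). The points follow the neighbourhood on the left (Pearson r 0.84) and lie in a flat band around 0.28 on the right, with Rpl39 above it.

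Hosts of snoRNAs were called higher in 26 of 30 cases and lower in none, with a median of 0.33. Members without a hosted snoRNA were called higher in 34 of 49 cases and lower in 4, with a median of 0.17. Among all members tested 75.9% were called higher and 5.06% lower, and among all genes tested 32.6% and 32.6%. The difference between hosts and other members was not tested. The 30 hosts carry 58 annotated snoRNAs. Exons of 22 members overlap those of another gene that is no snoRNA or microRNA, among them Rpl22l1, Rps2, Rpl5, Rpl19 and Rpl28, and whether the counting used strand is not given in the sources used here, so reads of the 2 genes cannot be told apart.

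Paralogs were compared per length, as RPKM, since gene lengths differ within pairs. Rpl22l1 replaces Rpl22 in some ribosomes, and in mice Rpl22 protein is known to bind the Rpl22l1 messenger RNA and keep it low. Rpl22l1 had 39.5 and 23.8 RPKM in KO libraries against 13.8, 17.7 and 12.3 RPKM in WT libraries. Rpl22 had 57.4 and 51.6 RPKM in KO against 49.6, 49.1 and 50.3 RPKM in WT. The share of Rpl22l1 in the pair was thus 40.8% and 31.6% in KO against 21.8%, 26.5% and 19.6% in WT, with no overlap. The log2 ratio of Rpl22l1 to Rpl22 was 0.95 higher in KO than in WT, 0.67 without KO replicate 1 and 1.24 without KO replicate 2. Rpl22l1 itself had a log2 fold change of 1.09 (standard error 0.158, limma, adjusted p = 3.3e-06), 0.74 without KO replicate 1 and 1.45 without KO replicate 2, and its neighbours' median was -0.011. That median can hide single neighbours: Eif5a2, on chromosome 3 from 28781032 to 28798846, lies close to Rpl22l1 (28805508 to 28807424) and rose by 1.16. Whether the 2 rises are linked was not tested. The coding sequences of Rpl22 and Rpl22l1 are 66.9% identical.

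Rpl7l1, a relative of Rpl7 that acts in the assembly of the large subunit, had 67.6 and 67.0 RPKM in KO against 50.4, 47.5 and 48.9 RPKM in WT. Rpl7 had 332.2 and 312.6 RPKM in KO against 274.5, 274.6 and 285.4 RPKM in WT. Both were called higher, and the share of Rpl7l1 in the pair was 16.9% and 17.7% in KO against 15.5%, 14.7% and 14.6% in WT. Rpl7l1 lies on chromosome 17, in a neighbourhood shifted by 0.32, and came to 0.15 with the shift subtracted, beside 0.11 for Rpl7.

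Rpl39l is a copy of Rpl39 known from testis, and the pair shows how close these sequences can be. The coding sequences from the GENCODE M21 annotation of GRCm38 are given 5′ to 3′, with the 23 of 156 bases that differ in capitals (85.3% identity). They are shown because Rpl39l was listed at 0 in KO libraries only.
Rpl39: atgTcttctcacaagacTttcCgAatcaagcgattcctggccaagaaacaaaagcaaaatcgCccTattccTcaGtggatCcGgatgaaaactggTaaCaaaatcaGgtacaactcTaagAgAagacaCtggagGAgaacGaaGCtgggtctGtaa
Rpl39l: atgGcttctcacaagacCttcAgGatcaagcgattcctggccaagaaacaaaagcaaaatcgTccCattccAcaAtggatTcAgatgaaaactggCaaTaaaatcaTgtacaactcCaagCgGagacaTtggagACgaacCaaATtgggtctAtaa
Rpl39l had 0 and 0 reads in KO libraries, against 8, 6 and 18 reads in WT libraries. With a floor of 3 reads in each KO library, its normalized read count was at least 2.98-fold lower in KO, a limit that falls to 1.96-fold without WT replicate 3. The gene did not reach the minimum for testing, and Rpl39, at 139.8 and 102.5 RPKM in KO against 74.9, 71.4 and 72.5 RPKM in WT, stood far above it in both groups. Rpl3l, the form of Rpl3 in heart and skeletal muscle, had 1 and 3 reads in KO against 1, 0 and 1 in WT and was not tested. Rpl3 itself was at 264.1 and 224.9 RPKM in KO against 187.5, 181.5 and 192.8 RPKM in WT. Of the pair Rpl10 and Rpl10l, Rpl10 on the X chromosome rose by 0.31 on the log2 scale and Rpl10l was at 0.

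The symbol Rps4y2 in the deposited table belongs to a gene on chromosome 6 that RefSeq lists as Rps4l, a transcribed pseudogene, and not to the Y chromosome. It had 29.7 and 32.2 normalized read counts in KO against 91.9, 75.2 and 62.0 in WT, the largest fall of the members (log2 fold change -1.26, standard error 0.235, limma, adjusted p = 7.7e-05). Its parent gene Rps4x, which supplies nearly all of the pair, had 15919 and 14514 in KO against 11556, 11712 and 12328 in WT (0.36). Rps27l, which p53 induces, took 97.6% and 98.2% of the RPKM of its pair with Rps27 in KO and 97.2%, 97.9% and 97.6% in WT. Rps27l had 2150 and 1833 normalized read counts in KO against 1998, 1912 and 2057 in WT and did not differ beyond this spread (limma, adjusted p = 0.975). Rpl36al took 24.0% and 25.1% of its pair with Rpl36a in KO against 25.2%, 26.9% and 24.5% in WT, with overlap.

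**Figure D5:**
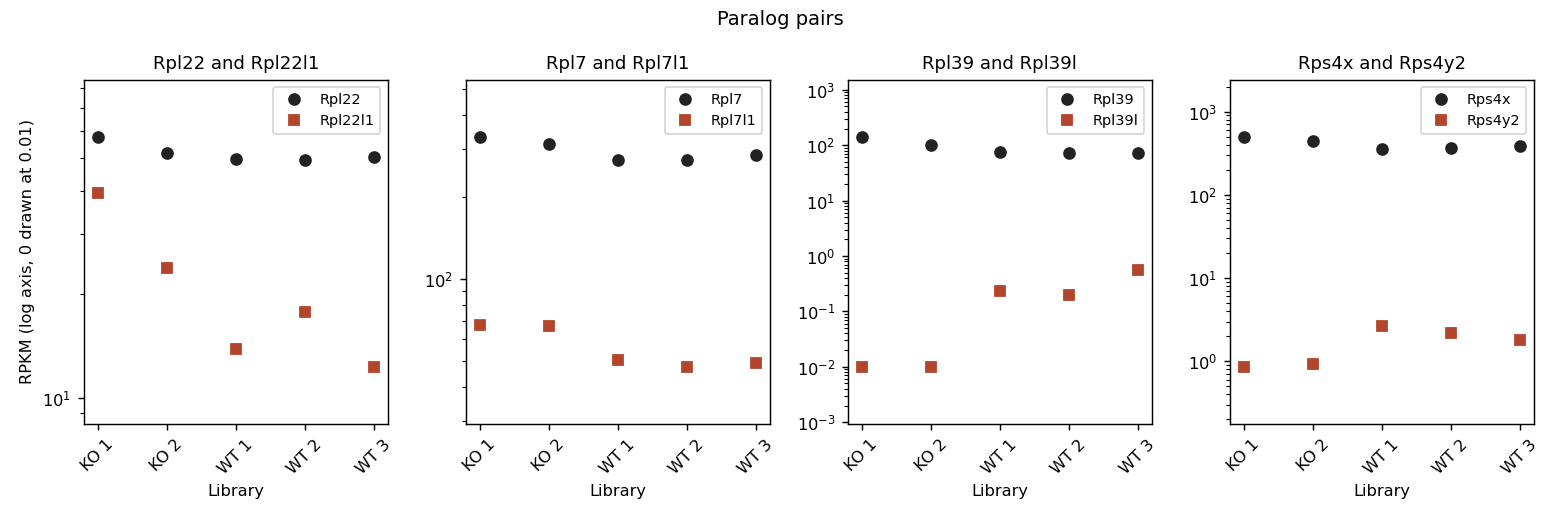
RPKM (log axis) of both genes of 4 paralog pairs in the 2 KO and 3 WT libraries, with the main gene as black circles and its paralog as red squares. Rpl22l1 and Rpl7l1 are higher in KO, while Rpl39l and Rps4y2 are lower in KO than in WT.

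Other genes of the ribosome and of translation went partly the same way. Among all genes tested 32.6% were called higher and 32.6% lower. Of 5 ribosomal proteins outside the symbol rule, 4 (80%) were called higher. Fau, which encodes Rps30, was at a log2 fold change of 0.63 (0.32 with the neighbourhood's shift subtracted), Gnb2l1, the gene of the scaffold protein Rack1, at 0.30 and Rpl36al at 0.22 (limma, adjusted p = 0.0282). Rps27l was not called. Among 11 elongation and termination factors tested, 6 (54.5%) were called higher and 1 (9.09%) lower (median 0.23). The subunits of the factor that reloads eEF1A, Eef1g, Eef1b2 and Eef1d, rose by 0.69, 0.70 and 0.51 on the log2 scale and Eif5a2 by 1.16. With the shift subtracted Eef1g came to 0.38, Eef1b2 to 0.77 and Eef1d to 0.59. In that fit 8 of the 11 were called higher and 1 lower, against 30.2% and 29.6% of all genes. The one lower was Gspt2, a relative of the release factor gene Gspt1, at -1.32.

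Among 40 initiation factors tested, 23 (57.5%) were called higher and 8 (20%) lower, with a median of 0.13, against 32.6% higher and 32.6% lower among all genes tested. Eif3f, a subunit of eIF3, was at 0.92, Eif4ebp1, the inhibitor that mTOR switches off, at 0.77, Eif3c at 0.40 and Eif1, which guards start codon choice, at -0.46. With the neighbourhood's shift subtracted, Eif3f came to 0.22, Eif4ebp1 to 0.30 and Eif1 to -0.13, Eif3c lost its call (0.076, limma, adjusted p = 0.0751), and 20 of the 40 were higher and 4 lower. The 17 other messenger RNAs known to carry the terminal oligopyrimidine motif include some of these factors. Of the 17, 12 (70.6%) were called higher and 2 (11.8%) lower, with a median of 0.21. Npm1, a nucleolar chaperone gene, was at 0.67, and the lower ones were Vim at -0.38 and Hnrnpa1 at -0.48. The 11 genes that control translation of such messenger RNAs went both ways, with 4 higher (36.4%) and 5 lower (45.5%), near the shares among all genes, and a median of -0.0031. Rptor and Mtor, of the mTOR complex, were at -0.43 and -0.20, Cnbp at 0.36, Larp1b at 0.52 and the mTOR inhibitor gene Tsc2 at 0.27. Tsc1 was lower, at -0.14, and Larp1 was not called (-0.0031, limma, adjusted p = 0.954). With the neighbourhood's shift subtracted, 2 of the 11 were higher and 3 lower. Rptor (-0.087, limma, adjusted p = 0.0762), Cnbp (0.071, 0.104), Tsc2 (-0.048, 0.405) and Tsc1 (-0.028, 0.595) were among those that lost their calls.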

How the data were processed

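Per the labels' protocols, RNA bound to poly-T beads was turned into Nextera XT libraries and read on a NextSeq. STAR, DESeq2 and mm10 stand in the submitters' processing notes; the sources used here give no roles, versions, counting program or strand setting. The authors deposited, per gene, a signal that is the read count divided by a size factor per library, as the whole steps of its values show, and RPKM. Their table also holds a log2 fold change, a score (the Wald statistic) and raw and adjusted p-values, as named per the file headers. Dividing both units gave each gene's counted length, whole within 0.5 bases.

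The planned test depended on the unit. Since these are normalized, log2(value + 1) was fitted with limma 3.58.1 (R 4.3.3, trended prior) over the 13062 genes that reached 10 in at least 2 of 5 libraries, with genotype as factor and Benjamini-Hochberg adjustment over all of them, two-sided. Fold changes are on that scale, which understates those of low genes. The test was checked on simulated data. Of the 83 members, 79 passed the minimum, while Rpl26, Rpl10l, Rpl39l and Rpl3l did not. Members and lists were chosen with earlier results of these data known. Named by rule are Sirt3, the paralog pairs, the 6 largest rises, all calls against the majority, the 3 highest in RPKM, the members under the minimum, the small role groups, and up to 4 called genes per comparison list with the smallest adjusted p. Some results are not reported here. Others named were chosen after their values were seen.

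Alternatives were other scalings, minimums, pseudocounts and thresholds, each library left out, the replicate block, edgeR 4.0.16 and DESeq2 1.42.0 on whole reads recovered for 4 libraries (100.0% of values were whole within 0.1 reads; the step of WT replicate 2 is too near 1 to be checked), the authors' deposited comparison, and removal of the neighbourhood's shift (at least 10 neighbours within 5 Mb) or of a length and GC trend. Copies were found with blastn in GENCODE M21 transcripts.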

Additional observations from a re-analysis of the deposited data

How the results depend on the processing

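The count of members called higher was 60 and of those called lower 4 (of 4259 and 4264 among all genes, given in brackets below). Under TMM rescaling it was 60 and 4 (4291 and 4234), and under median-ratio rescaling 60 and 4 (4268 and 4257). It was 55 and 3 on RPKM values (4061 and 4175) and 58 and 5 with edgeR (4150 and 3951). With DESeq2 it was 51 and 6 (3368 and 3315), and in the authors' deposited comparison 56 and 5 (3912 and 3774). Leaving out single libraries gave a median log2 fold change of 0.21 to 0.29 and a ratio of shares of 1.18 to 1.26. Leaving out a KO library leaves 1, assumed in the fits to vary like the WT libraries. The median fell to 0.21 with the length and GC trend removed. There 54 members were higher and 5 lower (4090 and 4293 among all genes). At 1.5-fold, 14 of the 79 members tested were higher and 1 lower, against 1609 and 1573 of all 13062 genes tested. With the neighbourhood's shift removed 1 was lower, and the sign turned for Rpl41 (0.28), Rps26 (0.24), Rps15 (0.17), Rpl19 (0.13) and Rpl28 (0.021); that shift, which the alternative itself takes out, was negative around each of these. Among members with a mean of 1000 or more, a limit chosen after seeing the data, 57 were higher and 3 lower. Same-numbered replicates did not deviate together (r = -0.0097 and -0.0050 for 2 pairs). The deviations of the 2 KO libraries from their mean mirror each other, so the 2 r values are not independent. Whether the numbers pair the samples cannot be told from them. With the replicate block 61 members were higher and 3 lower (3958 and 3947 among all genes), with a median of 0.29. The log2 ratio of Rpl39l to Rpl39, KO minus WT, was -4.04 and moved between -4.96 and -2.22 with the pseudocount, as Rpl39l was at 0 in KO. The ratio of Rpl3l to Rpl3 rests on 0 to 3 reads a library, where depth limits what can be said.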
